A study of Homo sapiens with 6 samples.

Results

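The genes described are the inhibitor of DNA binding genes ID1, ID2, ID3 and ID4 together with genes that carry or restrain bone morphogenetic protein (BMP) signalling in the cell: the inhibitory SMADs SMAD6 and SMAD7, SMAD9, the decoy receptor BAMBI and the receptors BMPR1A and BMPR2. Their members are all probe sets that the platform annotation gives to 1 of these 10 symbols alone, 23 of 49372 probe sets on the array. These 23 cover 9 of the 10 genes, and the expression of BMPR1A was not analysed here. Of the 23 probe sets, 20 were bright enough to test. They belong to 8 genes, and SMAD9 had a single probe set that was too dim.

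The values come from ARPE-19, an established human cell line derived from the retinal pigment epithelium, with 1 Affymetrix array for each of 6 samples. The 3 h group (3 arrays) was exposed for 3 h to 10 mU/ml glucose oxidase, an enzyme that releases hydrogen peroxide while it oxidises glucose, and the 0 h group (3 arrays) was not exposed. The protocol states that all cells had received a green fluorescent protein (GFP) construct 48 h earlier, whereas the sample descriptions name a GFP-satellite alpha construct for the 3 h arrays and GFP for the 0 h arrays, so the groups may differ in the construct as well as in the exposure. No 0 h culture is labelled as kept for the extra 3 h, and the labels do not say that replicates are separate cultures, so p-values measure only the spread between these samples, which may be technical.

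BMPs bind pairs of type I and type II receptors such as BMPR1A and BMPR2, which phosphorylate SMAD1, SMAD5 and SMAD9, and these enter the nucleus with SMAD4. The ID genes are classic direct targets of this route. Their proteins have a helix-loop-helix domain without a DNA-binding region, and so hold back basic helix-loop-helix factors from DNA. SMAD6, SMAD7 and BAMBI are themselves induced by the pathway and its relative, the TGF-beta pathway, and feed back to inhibit them. In the pigment epithelium both pathways are known for their part in differentiation and in the response to injury.

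ID1 and ID3 were lower on the 3 h arrays in all their probe sets, ID1 by about 1 on the log2 scale. The inhibitory genes SMAD7 and BAMBI were higher, as was 1 of the 2 tested probe sets of SMAD6. ID2 and ID4 did not pass the test, and the 3 tested probe sets of BMPR2 disagreed. Among the 20 tested probe sets 12 were called, of which 7 fell and 5 rose, and 8 were not called, at an adjusted p under 0.05 (limma, Benjamini-Hochberg over the 29576 probe sets tested). Over all tested probe sets 51.4% were called, 25.8% lower and 25.6% higher, so the numbers of calls among the members lie close to the background and are no result about them. The groups did not overlap for 16 of the 20, with the 3 h arrays below for 9 and above for 7, against 60.6% of all tested probe sets, 30.5% below and 30.1% above. The median change of the 20 was -0.14 on the log2 scale, against 0.01 for all tested probe sets.

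The 250 bases before the annotated start of 5 of the genes are shown first, because these genes had at least 1 probe set called and stand on both sides, ID1 and ID3 lower and SMAD6, SMAD7 and BAMBI higher. BMPR2, whose probe sets disagreed, is given by counts of letters only. The sequences are from RefSeq on GRCh38.p14 and read 5′ to 3′ on the gene's own strand. ID1 lies at chr20:31605039-31605288 (plus strand), ID3 at chr1:23559502-23559751 (minus strand), SMAD6 at chr15:66701986-66702235 (plus strand), SMAD7 at chr18:48950966-48951215 (minus strand, its outermost start site) and BAMBI at chr10:28677271-28677520 (plus strand). Capitals mark the letters GTCT, a short core bound by several SMADs, on either strand (AGAC on the strand shown), and the GC-rich SMAD letters GGCGCC and GCCGNCGC.
ID1: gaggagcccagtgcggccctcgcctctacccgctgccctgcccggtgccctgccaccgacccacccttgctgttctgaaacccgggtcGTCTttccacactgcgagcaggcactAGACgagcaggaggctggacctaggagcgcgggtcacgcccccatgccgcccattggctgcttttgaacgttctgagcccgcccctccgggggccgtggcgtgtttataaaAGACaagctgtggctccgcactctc
ID3: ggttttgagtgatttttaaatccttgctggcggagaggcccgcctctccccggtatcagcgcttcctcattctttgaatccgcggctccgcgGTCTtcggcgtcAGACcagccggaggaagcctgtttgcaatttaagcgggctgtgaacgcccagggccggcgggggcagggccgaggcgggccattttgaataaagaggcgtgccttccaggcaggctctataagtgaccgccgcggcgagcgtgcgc
SMAD6: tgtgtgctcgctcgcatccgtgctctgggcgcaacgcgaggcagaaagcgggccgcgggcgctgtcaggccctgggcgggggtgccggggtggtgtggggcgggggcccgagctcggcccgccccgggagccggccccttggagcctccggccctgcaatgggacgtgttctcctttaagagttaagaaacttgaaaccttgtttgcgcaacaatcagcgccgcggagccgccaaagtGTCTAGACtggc
SMAD7: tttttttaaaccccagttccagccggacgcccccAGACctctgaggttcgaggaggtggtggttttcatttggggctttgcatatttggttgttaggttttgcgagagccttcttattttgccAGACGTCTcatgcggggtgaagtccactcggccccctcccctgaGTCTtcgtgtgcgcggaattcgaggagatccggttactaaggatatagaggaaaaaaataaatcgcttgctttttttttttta
BAMBI: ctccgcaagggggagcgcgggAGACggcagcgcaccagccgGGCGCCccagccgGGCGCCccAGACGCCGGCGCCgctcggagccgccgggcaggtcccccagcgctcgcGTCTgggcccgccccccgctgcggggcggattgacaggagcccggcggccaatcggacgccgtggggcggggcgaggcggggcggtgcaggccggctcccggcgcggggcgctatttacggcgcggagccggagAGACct

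The search covered the same 250 bases of 27305 genes on both strands, with 1 start site per gene. GTCT was found in 77.7% of them, GGCGCC in 16.0% and GCCGNCGC in 12.4%. ID1 held 3 matches to GTCT, ID3 held 2, SMAD7 held 4 and BAMBI held 4. The BMPR2 window held 4 matches to GTCT, 1 to GGCGCC and 6 to GCCGNCGC. In the SMAD6 window both matches to GTCT lie in the full palindrome GTCTAGAC, which begins 12 bases before the start site. That palindrome was found in 0.179% of the promoters searched. GGCGCC occurred 3 times in BAMBI, where the last copy overlaps a GCCGNCGC match, and 0 times in the windows of ID1, ID3, SMAD6 and SMAD7. Of the other letters searched, TGACG (21.6% of promoters) matched ID3 alone among the 10 genes, GCGNGGGCG (8.22%) matched ID2, ID4 and SMAD9, CANNTG (62.2%) matched ID2, ID4, SMAD7, SMAD9, BMPR1A and BMPR2, and the full TGACGTCA (1.75%) matched 0 of them. GC content was 66.0% for ID1, 62.0% for ID3, 68.0% for SMAD6, 48.0% for SMAD7 and 81.2% for BAMBI, with a median of 57.6% over all promoters. A match is a run of letters, and binding was not measured. Bases farther from the start site and other start sites were not searched, so 0 matches here does not show that a gene lacks SMAD sites.

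ID1, the most studied BMP target of the family and a brake on differentiation, lies on chromosome 20 at 31605289 to 31606510 (GRCh38.p14), a span of 1222 bases. Its brightest probe set (11716196_x_at) had log2 values of 8.55, 8.81 and 8.64 on the 3 h arrays, against 9.77, 9.71 and 9.75 on the 0 h arrays. All 3 h values lay below all 0 h values, by far more than the spread within either group (SD 0.13 at 3 h and 0.03 at 0 h, n = 3 each). The level was 2.11-fold lower at 3 h (log2 change -1.08, SE 0.08, limma adjusted p = 3.68e-05). The second probe set (11753661_a_at) read 7.86, 7.75 and 7.74 at 3 h, against 8.68, 8.75 and 8.66 at 0 h. The third (11716195_a_at) read 7.08, 7.18 and 7.08 at 3 h, against 8.15, 8.23 and 8.14 at 0 h. The changes of these probe sets were -0.91 (SE 0.06, limma adjusted p = 3.40e-05) and -1.06 (SE 0.06, limma adjusted p = 1.92e-05), so the 3 probe sets gave one direction and a similar size.

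Few probe sets on the array fell as far as ID1. Counted from the largest decrease, its probe sets stood at ranks 35, 49 and 133 of the 29576 tested, and 70 probe sets (0.237%) were called and at least 2-fold lower. Leaving out any single array kept the change of the brightest probe set between -1.15 and -1.02. The 5 genes whose values over the 6 arrays, each centred on its own mean, lay nearest to those of ID1 were PKIB, a protein kinase A inhibitor, ST20, C12orf76, FBXO38, an F-box protein, and SETD9. Their root mean square differences from ID1 on the log2 scale ran from 0.025 for PKIB to 0.053 for SETD9, and their changes ran from -1.09 for PKIB to -1.02 for SETD9. These likenesses over 6 arrays describe the values only, since all 5 genes were lower in the same 3 h arrays.

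ID3, which acts with ID1 in vessel growth and lymphocyte development, lies on chromosome 1 at 23557926 to 23559501, a span of 1576 bases. Its brightest probe set (11757404_x_at) had log2 values of 8.38, 8.41 and 8.33 at 3 h, against 8.82, 8.76 and 8.82 at 0 h. The probe set 11716666_a_at read 7.99, 8.05 and 7.84 at 3 h, against 8.68, 8.56 and 8.62 at 0 h. The groups were apart in both, and also in the third probe set (11754008_x_at), which averaged 7.03 ± 0.05 at 3 h and 7.43 ± 0.10 at 0 h (SD, n = 3 each). The brightest fell by 0.42 (SE 0.06, limma adjusted p = 0.000560), the second by 0.66 (SE 0.07, limma adjusted p = 0.000213) and the third by 0.41 (SE 0.07, limma adjusted p = 0.00163). In linear terms ID3 was 1.34-fold, 1.58-fold and 1.33-fold lower at 3 h by these probe sets. The change of ID1 minus that of ID3, each by its brightest probe set, was -0.65, with a two-sided exact permutation p = 0.1, the smallest that 3 against 3 arrays allow.

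ID2, whose protein can also bind the retinoblastoma protein, showed small differences that were not called. It lies on chromosome 2 at 8682056 to 8684461. The brightest probe set (11715994_x_at) had log2 values of 8.77, 8.74 and 8.60 at 3 h, against 8.78, 8.80 and 8.89 at 0 h. The other (11746878_s_at) read 8.50, 8.50 and 8.45 at 3 h, against 8.45, 8.42 and 8.41 at 0 h. The groups did not overlap in either probe set, but the order was opposite in the 2 and neither change was called. The differences were -0.12 (95% interval -0.28 to 0.04, limma adjusted p = 0.173) and 0.057 (95% interval -0.07 to 0.18, limma adjusted p = 0.411). These intervals exclude a change of the size seen in ID1 and do not show that ID2 was the same in both groups. Both probe sets are of the kind that may be shared or cross-hybridize, so the alternative without such probe sets gave no ID2 value.

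ID4, the member of the family best known from neural and mammary progenitors, lies on chromosome 6 at 19837370 to 19842197. Its brightest probe set (11721688_at) had log2 values of 6.29, 6.68 and 6.46 at 3 h, against 6.65, 6.90 and 6.72 at 0 h. The groups overlapped, and the difference of -0.28 (95% interval -0.53 to -0.04) had a limma adjusted p = 0.0554. The second probe set (11721687_at) differed by -0.16 (limma adjusted p = 0.139), and the third (11721689_x_at) by 0.18 in the other direction (limma adjusted p = 0.0737). The second stood at -0.090 without replicate 1 at 3 h, and the third at 0.11 without replicate 2 at 0 h. The remaining one (11764110_s_at) was too dim to test, averaging 3.69 ± 0.37 at 3 h and 4.06 ± 0.24 at 0 h. The brightest probe set was called in 7 of 19 alternatives: with quantile normalization (-0.31), median centring (-0.32), a floor at the 60th percentile, eBayes with trend, the replicate block, each gene tested by its brightest probe set alone (limma adjusted p = 0.0498), and without replicate 2 at 3 h (-0.38). Over its 19 alternatives the adjusted p ran from 0.0153 to 0.173.

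Set side by side, the brightest probe sets of the ID genes changed by -1.08 for ID1, -0.42 for ID3, -0.28 for ID4 and -0.12 for ID2. Those of ID1, ID3 and ID2 are of the kind that may cross-hybridize. Probe sets not of that kind changed by -0.66 for ID3 (11716666_a_at) and by -0.91 and -1.06 for ID1. Of the 6 pairs of these genes, 4 differed in their change with an exact permutation p = 0.1, and all p-values were at least 0.15 after adjustment over the 6 pairs. The pair of ID4 with ID2 (p = 0.5, exact) and that of ID3 with ID4 (p = 0.4, exact) overlapped in their per-array values. ID3 and ID2 were among the 4 pairs, with changes 0.30 apart. The place of ID4 between ID3 and ID2 is within the spread of the arrays.

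**Figure D1:**
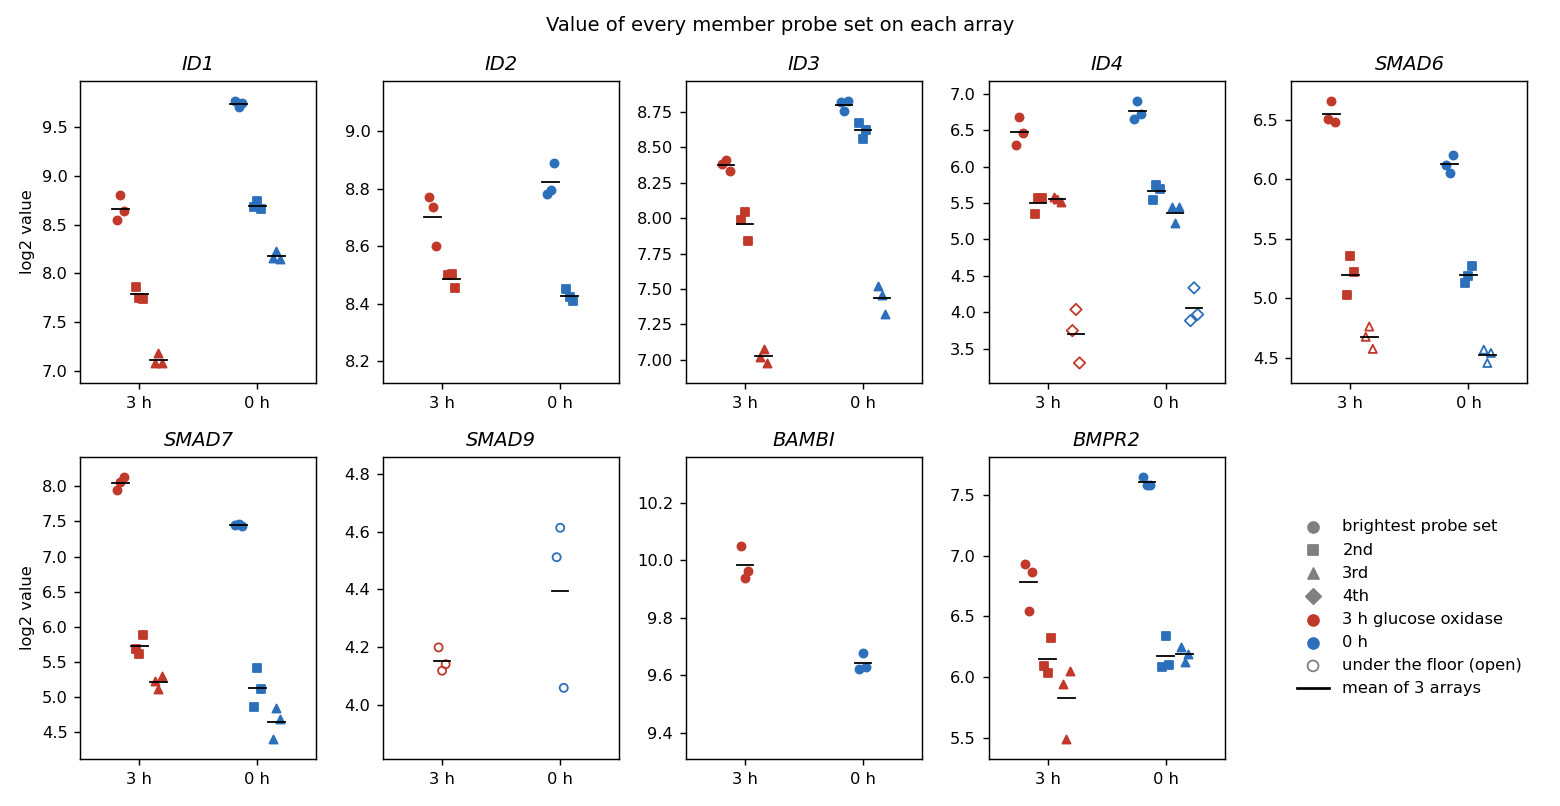
Log2 value (vertical axis, a separate scale for each gene) of all 23 probe sets on the 3 h arrays (red, left) and the 0 h arrays (blue, right), with a symbol for each probe set and a line at the mean of 3 arrays. ID1 and ID3 lie lower and SMAD7 and BAMBI higher at 3 h in every probe set, and open symbols mark the 3 probe sets under the floor of 4.64.

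The inhibitory members SMAD7, SMAD6 and BAMBI stood higher at 3 h by their brightest probe sets. SMAD7, which blocks type I receptors of both the BMP and the TGF-beta branch and recruits ubiquitin ligases to them, was higher in all 3 of its probe sets. It lies on chromosome 18 at 48919853 to 48950965. The brightest probe set (11725514_a_at) had log2 values of 7.95, 8.06 and 8.13 at 3 h, against 7.45, 7.46 and 7.44 at 0 h. The 0 h arrays were almost equal and every 3 h array was above them. The level was 1.51-fold higher at 3 h (log2 change 0.60, SE 0.06, limma adjusted p = 0.000214). The dimmer probe set 11748986_a_at read 5.68, 5.62 and 5.89 at 3 h, against 4.85, 5.41 and 5.11 at 0 h, and 11725513_a_at read 5.22, 5.11 and 5.31 at 3 h, against 4.41, 4.84 and 4.68 at 0 h. They rose by 0.60 (SE 0.14, limma adjusted p = 0.00654) and 0.57 (SE 0.11, limma adjusted p = 0.00311), almost the same size as the brightest, with a wider spread between the 0 h arrays.

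SMAD6, the inhibitory SMAD that acts mainly on the BMP branch, lies on chromosome 15 at 66702236 to 66782849. Its brightest probe set (11730338_a_at) had log2 values of 6.51, 6.66 and 6.48 at 3 h, against 6.12, 6.06 and 6.21 at 0 h. Every 3 h array was above every 0 h array, and the level rose 1.34-fold (log2 change 0.42, SE 0.07, limma adjusted p = 0.00173). The second tested probe set (11730339_a_at) did not move with it: it read 5.02, 5.35 and 5.22 at 3 h, against 5.13, 5.19 and 5.27 at 0 h, a difference of 0.0028 (limma adjusted p = 0.982) that turned to -0.035 with quantile normalization and -0.034 with median centring. The third (11730337_at) was under the floor, at 4.67 ± 0.09 at 3 h and 4.52 ± 0.06 at 0 h. Averaged over its 3 probe sets, SMAD6 stood at 0.19 and was still called (limma adjusted p = 0.0271).

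BAMBI encodes a membrane protein that resembles a type I receptor but lacks the kinase domain, and so takes receptors out of action. It lies on chromosome 10 at 28677521 to 28682932, and its single probe set (11756509_a_at) was brighter than 94.5% of all probe sets. Log2 values were 10.05, 9.94 and 9.96 at 3 h, against 9.62, 9.68 and 9.63 at 0 h. The groups were well apart, and BAMBI rose 1.27-fold (log2 change 0.34, SE 0.06, limma adjusted p = 0.00188).

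BMPR2, the type II receptor that activates the type I receptor, gave different answers by probe set. The gene spans 191423 bases of chromosome 2, from 202376327 to 202567749. Its brightest probe set (11756105_a_at) had log2 values of 6.93, 6.54 and 6.87 at 3 h, against 7.65, 7.58 and 7.58 at 0 h. This probe set fell by 0.82 (SE 0.10, limma adjusted p = 0.000357), a 1.77-fold lower level at 3 h. The probe set 11728700_a_at averaged 6.15 ± 0.15 at 3 h and 6.17 ± 0.14 at 0 h, with overlapping groups (limma adjusted p = 0.850). The probe set 11728699_at averaged 5.83 ± 0.30 at 3 h and 6.19 ± 0.06 at 0 h, where all 3 h arrays lay below but replicate 2 at 3 h (5.50) was far under the others, and the difference of -0.36 had a limma adjusted p = 0.0522. It was called in 7 of 16 alternatives, with quantile normalization (-0.39), median centring (-0.39), eBayes with trend, array weights (-0.43), the replicate block, omission of probe sets that may cross-hybridize, and without replicate 3 at 3 h (-0.47). It stood at -0.19, not called, without replicate 2 at 3 h. The brightest differed from 11728700_a_at by -0.80 in its change and from 11728699_at by -0.47, each with an exact permutation p = 0.1 and an adjusted p of 0.189 over the 17 pairs of probe sets compared within genes. Averaged over the 3 probe sets, BMPR2 stood at -0.40 and was called (limma adjusted p = 0.00444), in the direction of the brightest probe set and at less than its size.

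SMAD9, a BMP-activated SMAD that works as a weak activator in some cells, was near the dim end of the array. Its probe set (11740220_a_at) had log2 values of 4.20, 4.12 and 4.14 at 3 h, against 4.51, 4.61 and 4.06 at 0 h, all under the floor of 4.64. The groups overlapped and no test was made. Of the 3 probe sets under the floor, the differences ran from -0.37 for ID4 to 0.15 for SMAD6. Bulk samples were measured, so a lower share of cells that express a gene and less RNA in each cell cannot be told apart.

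**Figure D2:**
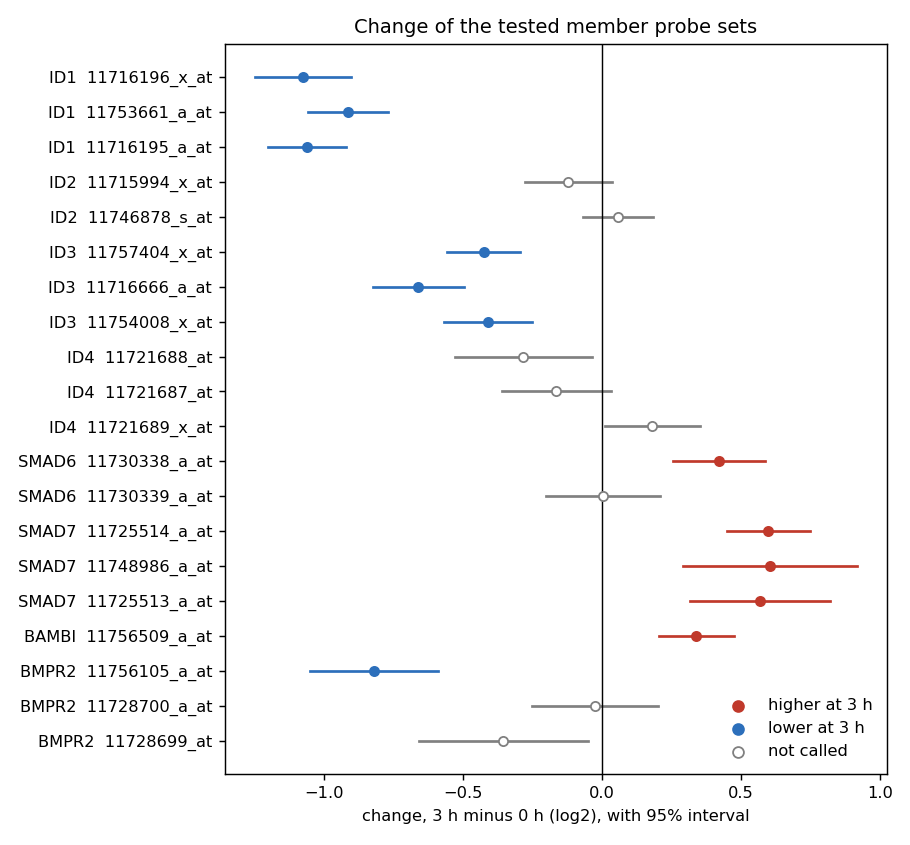
Change of each of the 20 tested probe sets (3 h minus 0 h, log2, horizontal axis) with its 95% interval from limma; red was called higher, blue lower and open grey not called. The 3 probe sets of ID1 lie between -1.08 and -0.91 and those of SMAD7 between 0.57 and 0.60, while the probe sets of BMPR2 spread from -0.82 to -0.02.

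**Figure D3:**
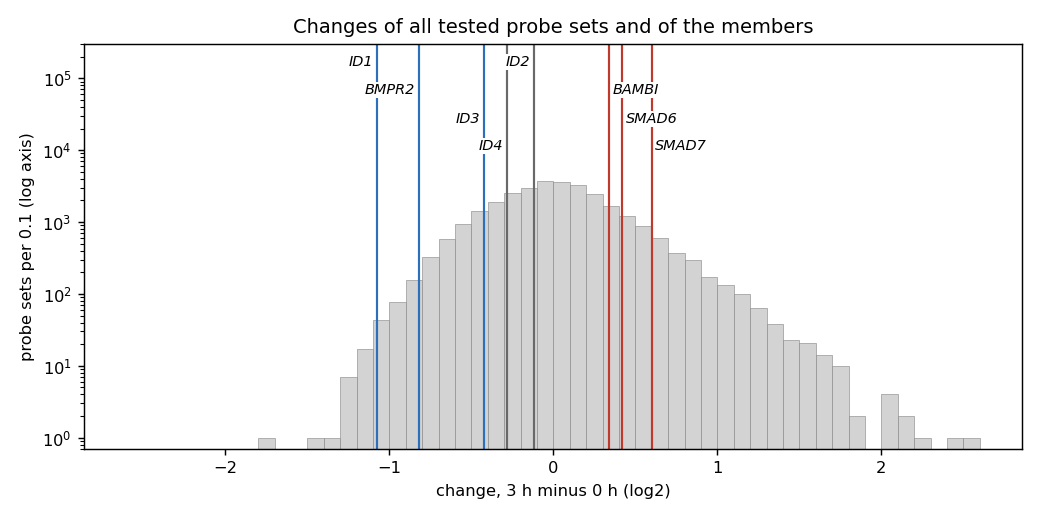
Number of tested probe sets (vertical log axis) by their change (3 h minus 0 h, log2, bins of 0.1), with lines at the brightest probe set of each tested member (blue lower, red higher, grey not called). ID1 at -1.08 stands in the thin lower tail, BMPR2 at -0.82 next to it, and SMAD7 at 0.60 inside the 95th percentile of 0.66.

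The rest of the pathway was read from lists of genes ordered by role, each gene by its brightest probe set. The brightest probe sets of the named genes SMAD5, SMAD2, TWSG1, SKI, CTDSP2, HAMP, TCF3 and TCF12 may be shared or cross-hybridize. Of 73 tested genes on the 7 lists, 23 rose, 15 fell and 35 were not called, with a median change of 0.04. Over all 12221 genes tested 49.7% were called, 19.9% higher and 29.8% lower, with a median of -0.04.

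The SMADs that carry the signal moved in both directions. SMAD5 and SMAD1, which BMP receptors phosphorylate, fell by 0.61 (SE 0.06, limma adjusted p = 0.000197) and 0.55 (SE 0.10, limma adjusted p = 0.00179). SMAD5 averaged 8.01 ± 0.04 at 3 h and 8.62 ± 0.08 at 0 h, and SMAD1 averaged 7.42 ± 0.16 at 3 h and 7.98 ± 0.11 at 0 h (SD, n = 3 each). SMAD3, which TGF-beta and activin receptors phosphorylate, rose by 0.78 (SE 0.06, limma adjusted p = 6.52e-05), with 10.13 ± 0.04 at 3 h and 9.35 ± 0.08 at 0 h, while its relative SMAD2 fell by 0.27 (limma adjusted p = 0.0136). SMAD2 was not called without replicate 2 at 0 h (-0.23). In all, 3 of the 5 other SMADs fell and 1 rose, and SMAD4 was not called.

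Of 9 tested BMP and GDF ligands 2 rose and 7 were not called, a share near the 19.9% of all tested genes that rose. BMP2 rose by 0.57 (SE 0.07, limma adjusted p = 0.000299), averaging 8.74 ± 0.09 at 3 h and 8.17 ± 0.05 at 0 h, and BMP4 rose by 0.23 (limma adjusted p = 0.00842). GDF6 and GDF5 stood at 0.18 and 0.10 and were not called, although GDF6 was called without replicate 1 at 0 h (0.28). Among 7 other receptors and coreceptors 3 rose and 1 fell. The coreceptor genes NEO1, RGMB and RGMA rose by 0.60, 0.43 and 0.37, and the type II receptor gene ACVR2A fell by 0.19, with a limma adjusted p = 0.0498. That call of ACVR2A was lost in 13 of 19 alternatives, among them the omission of any 1 array other than replicate 3 at 3 h (-0.23 to -0.13). NEO1 stood at 0.28, still called, averaged over its probe sets, and RGMA at 0.021 and was not called.

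Inhibitors outside the members were mixed. Of 13 secreted antagonists 4 rose and 1 fell: FSTL3, which binds activins, rose by 0.50, CRIM1, a membrane-anchored BMP-binding protein, by 0.48 and NOG, which encodes noggin, by 0.23, while TWSG1, a partner of chordin, fell by 0.52. CRIM1 stood at 0.87 averaged over its probe sets, and NOG was not called without replicate 2 at 0 h (0.21). Of 19 intracellular regulators 6 rose and 5 fell. The ubiquitin ligase gene SMURF1, whose product marks BMP-activated SMADs for destruction, rose by 0.96 (SE 0.06, limma adjusted p = 2.32e-05), and its relative SMURF2 fell by 0.59 (SE 0.07, limma adjusted p = 0.000273). The SMAD corepressor gene SKI rose by 1.51 and the phosphatase gene CTDSP2 by 0.80, or 0.51 averaged over its probe sets.

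Of 11 other textbook BMP targets tested, 4 rose, 1 fell and 6 were not called, with a median change of 0.14. MSX1, RUNX2 and ATOH8, transcription factor genes of bone, limb and vessel development, rose by 0.21, 0.31 and 0.25. HAMP, the iron hormone gene that BMP signalling induces in liver, fell by 0.35. These calls changed with the scaling, the floor or single arrays. RUNX2 and ATOH8 lost theirs with quantile normalization (0.28 and 0.22), with median centring (0.27 and 0.21) and with no floor, and MSX1 lost its call with no floor. RUNX2 also lost it on the omission of each 0 h array (0.28 to 0.32) and stood at 0.19, still called, without replicate 1 at 3 h. MSX1 lost it on the omission of the 0 h replicates 1 and 3 in turn (0.19 and 0.21) and of the 3 h replicate 2 (0.17). ATOH8 lost it on the omission of 0 h replicates 1 and 2 in turn (0.25 and 0.19) and of 3 h replicates 2 and 3 (0.23 and 0.20). HAMP lost it on the omission of 0 h replicates 1 and 3 in turn (-0.34 and -0.29). HAMP also stood at -0.14, not called, averaged over its probe sets. Whether ID1 and ID3 differ from these targets as a group was not tested.

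Among 9 tested genes whose proteins ID proteins bind, 3 rose and 4 fell. TCF3, which encodes the E proteins E12 and E47, rose by 0.43 (limma adjusted p = 0.000799), and ETS2 rose by 0.32. The E protein gene TCF12 fell by 0.60 and the retinoblastoma gene RB1 by 0.68, each by its brightest probe set. Averaged over all their probe sets, TCF12 stood at -0.12 and RB1 turned to 0.088, and neither was called.

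**Figure D4:**
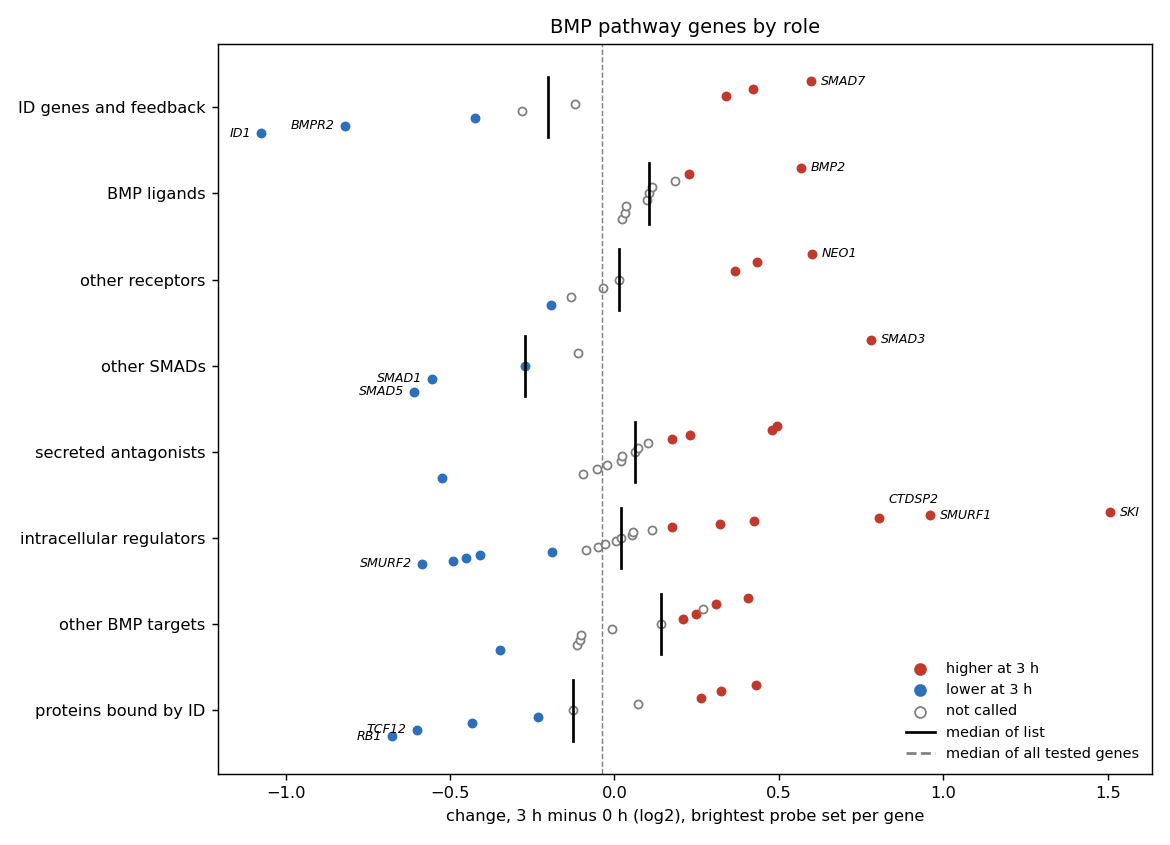
Change of each tested gene by its brightest probe set (3 h minus 0 h, log2, horizontal axis) in the members and 7 other lists of the pathway; red was called higher, blue lower and open grey not called, black bars are list medians and the dashed line is the median of all tested genes, -0.04. SMAD1 and SMAD5 lie on the lower side with ID1, and SMAD3, SMURF1 and SKI on the upper side.

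The array-wide differences run beside all of these values. All 24 control probe sets of the poly-A spikes were lower on every 3 h array (median -0.60), as were 17 of 18 of the hybridization spikes (median -0.31). The 5′ minus 3′ difference of the actin control probe sets was -1.20 ± 0.06 at 3 h and -2.06 ± 0.07 at 0 h (log2, SD, n = 3, exact permutation p = 0.1), and that of GAPDH was -0.13 ± 0.04 at 3 h and -0.39 ± 0.05 at 0 h (exact permutation p = 0.1). Preparation of RNA or arrays and the exposure therefore cannot be told apart. Of 9 tested pigment epithelium markers 4 rose (KRT8, KRT18, OTX2 and MITF), 1 fell (SERPINF1) and 4 were not called. Over all tested genes 19.9% were called higher and 29.8% lower. MITF stood at 0.33 by its brightest probe set and at 0.095 averaged over its probe sets. The same averages were 0.72 for KRT8, 0.39 for KRT18, 0.19 for OTX2 and -0.39 for SERPINF1. The markers RPE65, RLBP1, TYRP1 and MERTK were under the floor. Among 7 tested markers of blood, endothelial, photoreceptor and glial cells 1 fell and 6 were not called. The 1 that fell was PDE6B (-0.36, or -0.066 averaged over its 4 probe sets). CD3E, CD68, PECAM1, VWF, GFAP and HBB were above the floor and not called, and CD68 averaged 8.20 at 3 h and 8.25 at 0 h. The leukocyte marker PTPRC, the endothelial marker CDH5 and the photoreceptor marker ARR3 were under the floor.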

How the data were processed

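RNA of 6 ARPE-19 samples was labelled with a 3′ IVT kit, per the labels' protocols. The authors deposited log2 values for 49372 probe sets. The scale was read from the values, with medians of 5.30 to 5.34 per array. MAS5 and RMA are named, with no role or version, per the submitters' processing notes. RMA equalises distributions, so if these are RMA values a change in total RNA is not visible. Groups and replicates came from the titles. The number of arrays limits the precision.

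Gene names come from the platform annotation, for the 44988 probe sets with 1 symbol. The 79 controls were left out. Probe sets with a mean under the 40th percentile (log2 4.64) were not tested, which left 29576. The test was limma's moderated linear model (version 3.58.1, R 4.3.3). P-values were adjusted by Benjamini-Hochberg over all tested probe sets and called under 0.05. Changes are 3 h minus 0 h, and "rose" and "fell" are used of calls. On simulated data over 29576 probe sets, 95 of 100 changed by 1, 62 of 100 changed by -0.5 and 2 of 29376 unchanged probe sets were called. Far fewer probe sets changed there than the 51.4% called in these data. The adjustment depends on that share, so these rates do not give the sensitivity here. The members and gene lists were chosen with earlier results of these data known. From each other list the 4 genes with the smallest p were named, plus 1 called in the other direction where those 4 had none. GDF5 and GDF6 came in by that rule without being called. SMAD4, PTPRC and the other markers are named as list members. Promoters were searched with Python 3.11.15, and figures drawn with matplotlib 3.10.9. Alternatives covered scaling, the floor, variance moderation, array weights, replicate number as a block, threshold, fold minimum, probe set choice and leaving out each array.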

Additional observations from a re-analysis of the deposited data

How the results depend on the processing

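The directions of all called member probe sets held in every alternative run. The calls of ID1, the brightest SMAD7 and the brightest BMPR2 probe set held in all 17 to 19 alternatives that gave them a value. A minimum of 1.5-fold left 7 of the 20 member probe sets (5 lower, 2 higher) and 3321 of all 29576 (1334 lower, 1987 higher). It left 9 of 73 pathway genes (4 lower, 5 higher). A threshold of 0.01 left 25 of them (9 lower, 16 higher) and 10369 of all 29576 probe sets (5149 lower, 5220 higher). Shares over all genes were not counted at these settings, for single arrays left out or for the replicate block. Those pathway counts therefore have no background of genes and are no result about the lists. A floor at the 60th percentile left 14 member probe sets to test, of which 11 were called (8 lower, 3 higher). Over all probe sets above that floor it was 12128 of 19717 (6359 lower, 5769 higher). The dimmer SMAD7 probe sets lay under it and were not tested. By the brightest probe set per gene 7 of 8 tested members were called (4 lower, 3 higher). Over all genes tested that way it was 6273 of 12221 (3759 lower, 2514 higher). By the mean of all probe sets per gene 6 of 8 tested members were called (3 lower, 3 higher). Over all genes tested by that mean it was 6099 of 10679 (3197 lower, 2902 higher). Without shared or cross-hybridizing probe sets 10 of 14 member probe sets were called (5 lower, 5 higher). Over all remaining probe sets it was 9594 of 19341 (4667 lower, 4927 higher). The higher floor, the per-gene alternatives and the one without shared probe sets test fewer units by construction. Leaving out single arrays gave 12 to 13 member calls (7 to 8 lower, 5 higher), 12294 to 14699 over all probe sets (6066 to 7458 lower, 6228 to 7241 higher) and 29 to 36 pathway genes (10 to 14 lower, 18 to 22 higher).

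The sign turned in 3 values, the cause was not tested. SMAD6 11730339_a_at was -0.035 with quantile normalization and -0.034 with median centring, and ran from -0.074 to 0.090 when single arrays were left out. BMPR2 11728700_a_at ran from -0.11 to 0.058 when they were. RB1 was 0.088 as the mean of its probe sets. Deviations from the group mean correlated at -0.19 to -0.01 between same-numbered arrays and at -0.17 to 0.20 between differently numbered ones. With 3 arrays in a group these values cannot tell whether the numbers pair the arrays. The replicate block called 14 member probe sets (9 lower, 5 higher) and 13862 of all 29576 (6970 lower, 6892 higher). It also called 33 of 73 pathway genes (12 lower, 21 higher). It called ID4 (-0.28) and BMPR2 11728699_at (-0.36) and lost the call of ACVR2A (-0.19). The 3 arrays of a group and the dim 0 h signal of the 2 weaker SMAD7 probe sets limit the precision.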
